A study of Mus musculus with 6 samples.

Results

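The Ly6 and uPAR-domain genes described here are 10 of the 55536 genes in the count table, namely *Ly6e*, *Ly6a*, *Ly6c1*, *Ly6d*, *Ly6k*, *Ly6g6c*, *Lynx1*, *Slurp1*, *Lypd1* and *Lypd3*. They were picked by symbol because *Ly6e* was known from earlier results of these data to be higher in TKO, so the values of *Ly6e* are given as a description with no test, and the question was whether the other 9 members shared its difference. Each of the 10 symbols matched 1 Ensembl gene in the table. Bulk RNA-seq had been performed on E16.5 basal keratinocytes, sorted from dorsal skin as cells positive for both Epcam and α6 integrin, in 3 Ctrl and 3 TKO libraries. Both groups carried floxed *Suv39h1* and *Setdb1*, lacked *Suv39h2* (Suv39h2-/-) and received tamoxifen, so neither group was wild type. TKO embryos carried K14CreERT2, in which the *Krt14* promoter limits the tamoxifen-dependent recombinase to keratinocytes with an active *Krt14* gene, and Ctrl embryos did not. The study's supplementary information describes these litters as mosaic after tamoxifen at E9.5, E10.5 and E11.5, so TKO libraries can hold cells that were not recombined. Library names carry the letter F in Ctrl 1 and TKO 2 and the letter M in the other 4. Total counts were 102159175, 136515436 and 104422632 in Ctrl 1, 2 and 3 and 116308383, 108957256 and 118413082 in TKO 1, 2 and 3.

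Members of this family share a small disulfide-bonded fold, the three-fingered domain first described in snake toxins and in the urokinase receptor uPAR. Most of them, such as Ly6e, Ly6a and Lypd3, are held on the outer face of the cell membrane by a GPI anchor, whereas Slurp1 is secreted. In skin the family is known for Ly6d and Lypd3, which mark keratinocytes, and for Slurp1, a ligand of nicotinic acetylcholine receptors whose loss causes a palmoplantar skin disease. Several members, including Ly6e and Ly6a, are also known as interferon-stimulated genes and as surface markers of blood or stem cells.

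In the GENCODE vM39 annotation of GRCm39, 7 of the 10 members lay on chromosome 15, within 324.52 kb between the start of *Slurp1* (74596167) and the end of *Ly6c1* (74920686). *Lypd3* lies on chromosome 7, *Ly6g6c* on chromosome 17 and *Lypd1* on chromosome 1. Transcribed strands differed within the cluster, with *Ly6e* on the plus strand and the other 6 members of chromosome 15 on the minus strand. For 4 members RefSeq windows of GRCm38.p6 gave the 250 bases upstream of an annotated start, and 3 of these windows are shown because they belong to *Ly6g6c* and *Lypd3*, both abundant in these cells, and to *Ly6c1*, the member of the *Ly6e* cluster for which a window was given. Capitals mark each match, on either strand, to TATAAA (the TATA box) or GGGCGG (the GC box).
Ly6g6c, chr17:35067075-35067324, plus strand: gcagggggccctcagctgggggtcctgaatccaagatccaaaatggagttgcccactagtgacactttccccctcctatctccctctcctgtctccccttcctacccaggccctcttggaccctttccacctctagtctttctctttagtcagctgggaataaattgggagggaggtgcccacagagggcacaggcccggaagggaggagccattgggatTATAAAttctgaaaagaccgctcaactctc
Lypd3, chr7:24636320-24636569, plus strand: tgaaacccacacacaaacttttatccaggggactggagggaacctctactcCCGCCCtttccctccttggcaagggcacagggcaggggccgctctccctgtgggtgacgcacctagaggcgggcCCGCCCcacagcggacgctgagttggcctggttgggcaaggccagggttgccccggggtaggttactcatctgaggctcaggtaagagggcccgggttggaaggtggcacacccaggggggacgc
Ly6c1, chr15:75048838-75049087, minus strand: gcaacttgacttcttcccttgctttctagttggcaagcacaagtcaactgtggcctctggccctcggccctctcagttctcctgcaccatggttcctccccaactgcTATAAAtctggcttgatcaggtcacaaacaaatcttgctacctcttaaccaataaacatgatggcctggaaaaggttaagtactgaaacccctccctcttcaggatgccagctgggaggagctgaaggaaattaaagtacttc
The TATA box of *Ly6g6c* began 30 bases before the start (position -30), and that of this *Ly6c1* window at -143. The second *Ly6c1* window, which overlaps it, held no match to either motif. The GC boxes of *Lypd3* began at -199 and -125. TATAAA was present in 12.4% and GGGCGG in 32.7% of all 32851 windows of this length, so neither is unusual. The core of an interferon-stimulated response element, a pair of GAAA blocks on 1 strand with a short gap, was in none of the 7 windows of members and in 2.98% of all windows. TTCNNNGAA, a gamma-activated site, was likewise in none of the 7 and in 7.02% of all windows. *Ly6e*, *Ly6a*, *Ly6d*, *Ly6k*, *Lynx1* and *Slurp1* had no entry.

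The targeted genes and the markers of the sorted cells were read first. *Setdb1*, a histone methyltransferase that deposits H3K9me3, measured 125.5, 117.9 and 121.1 CPM in Ctrl 1, 2 and 3 and 95.27, 62.27 and 74.86 CPM in TKO 1, 2 and 3 (CPM, a gene's counts per 1000000 counts of the library after TMM scaling). Its groups did not overlap, and TKO 1 kept the highest level of the 3 TKO libraries. The log2 fold change was -0.65 (standard error, SE, 0.161), and edgeR's quasi-likelihood test gave adjusted p = 0.286. *Suv39h1* (log2 fold change -0.10) and *Suv39h2* (0.11), whose proteins deposit the same mark, had overlapping groups. Counts cover whole genes, so they do not resolve the floxed exons. The basal keratins *Krt5* and *Krt14* averaged 10850 and 5744 CPM in Ctrl. The suprabasal keratins *Krt1* and *Krt10* averaged 9941 and 8472 CPM, a like abundance. Other suprabasal and barrier genes differed widely in Ctrl, with 784 CPM for *Dmkn* and 1.631 CPM for *Sprr1b*. Which of the sorted cells held this RNA was not tested.

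The family spanned a wide range of abundance in these cells. Levels were compared between genes as CPM per kb of exon in Ctrl, and *Ly6d* was the most abundant member at 511 ± 39.5 (SD, n = 3 for this and the following levels). *Lypd3* followed at 77.9 ± 9.56, then *Ly6g6c* at 24.0 ± 9.94 and *Ly6e* at 3.44 ± 0.455. *Lynx1* came next at 0.513 ± 0.1. The ranges over the Ctrl libraries did not overlap between any neighbours in this order down to *Ly6a* in the sixth place. *Ly6a* (0.218 ± 0.103), *Ly6c1* (0.213 ± 0.0652), *Lypd1* (0.163 ± 0.0786) and *Ly6k* (0.115 ± 0.121) overlapped their neighbours and could not be ordered. *Slurp1* was last at 0.00343, resting on 3 counts in 1 library. In TKO *Ly6e* averaged 9.99 ± 3.85 CPM per kb and kept the fourth place, below *Ly6g6c* at 27.0 ± 5.47. Scaled by coding length in place of exon length, *Ly6e* reached the third place in TKO, at 84.5 against 83.0 for *Ly6g6c*. Their TKO ranges by coding length overlapped, at 47 to 105 and 63.8 to 95.2, so these genes could not be ordered there.

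*Ly6e* (ENSMUSG00000022587, chromosome 15, 74826860 to 74847454) encodes a GPI-anchored surface protein known as a modulator of viral entry and, in placenta, as the receptor for the fusogen syncytin-A. It measured 13.46, 15.93 and 17.57 CPM in Ctrl 1, 2 and 3, and 25.29, 56.40 and 54.78 CPM in TKO 1, 2 and 3. Each TKO library lay above each Ctrl library, and TKO 1 lay closer to the Ctrl libraries than to the other 2 TKO libraries. The Ctrl libraries averaged 15.66 ± 2.07 CPM and the TKO libraries 45.49 ± 17.51 CPM (SD, n = 3), a ratio of 2.906. The log2 fold change was 1.54 (SE 0.279). It was 1.82 without TKO 1 and 1.35 without TKO 2, the ends of its range over 13 alternative settings. Raw counts were 1333, 2059 and 1894 in Ctrl and 2976, 6228 and 6662 in TKO, so depth did not limit this gene. In bulk samples more cells of a type and more RNA per cell cannot be told apart.

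**Figure D1:**
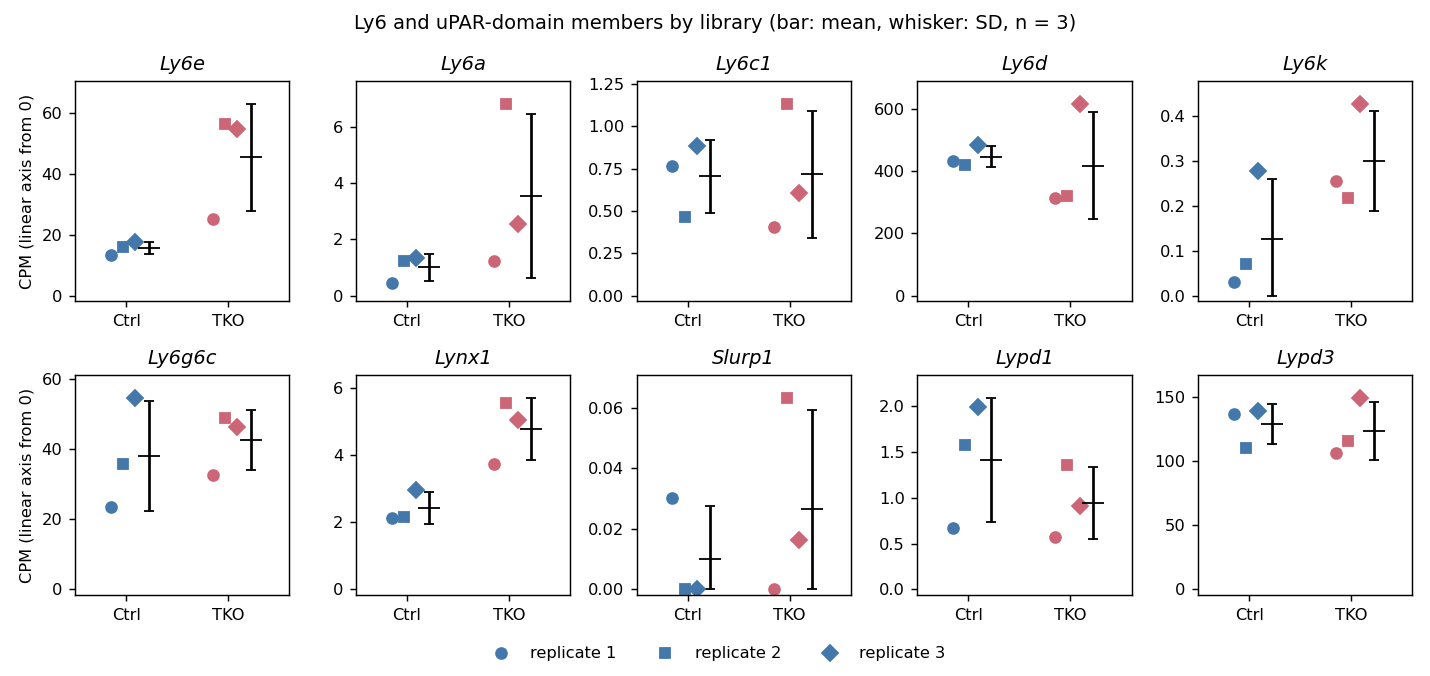
CPM of the 10 members in each library on linear axes that start at 0, with a separate scale for each gene; symbols mark replicate numbers, blue is Ctrl and red is TKO, and the black bar and whisker give mean and SD (n = 3), with whiskers stopped at 0. In the *Ly6e* and *Lynx1* panels all 3 TKO symbols lie above all 3 Ctrl symbols, and in the other 8 panels the groups overlap.

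Across the whole table, edgeR's quasi-likelihood test with Benjamini-Hochberg adjustment called 27 of 20622 genes higher in TKO (0.131%) and 0 lower (0%), at an adjusted p-value under 0.05 and a log2 fold change past 1 in either direction. With the replicate number as a block these counts were 44 and 1, and DESeq2 on the same genes called 193 and 21. At an unadjusted p-value under 0.05, 837 genes were higher (4.06%) and 416 lower (2.02%). Groups did not overlap in 1310 genes that were higher in TKO (6.35%) and in 1054 that were lower (5.11%). These are the shares beside which the members are read. No such share was computed for genes with the same direction in every same-numbered pair of libraries, so that trait is given as a description only.

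Of the 9 members other than *Ly6e*, 8 had enough counts to be tested, and edgeR called 0 of them. The exception was *Slurp1*, with too few counts. Of the 8, 5 had positive and 3 negative log2 fold changes, and their median was 0.0952 beside 0.0128 for all tested genes. That median ran from -0.00938 without Ctrl 2 to 0.369 without Ctrl 3, and was 0.306 without TKO 1. *Lynx1* was the 1 member of the 8 whose groups did not overlap. At an unadjusted p-value under 0.05, 2 were higher (*Lynx1* and *Ly6a*) and 0 lower. DESeq2 on the same genes also called 0, since *Lynx1*, with an adjusted p-value of 0.0419 there, had a log2 fold change of 0.979, short of the 1 that a call needed.

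*Lynx1* (ENSMUSG00000022594, chromosome 15, 74619687 to 74624895) encodes a GPI-anchored protein that binds nicotinic acetylcholine receptors and dampens their response. It measured 2.141, 2.159 and 2.969 CPM in Ctrl 1, 2 and 3, and 3.747, 5.560 and 5.049 CPM in TKO 1, 2 and 3. All TKO libraries lay above all Ctrl libraries, with TKO 1 the lowest of the TKO libraries, the same place it held for *Ly6e*. The group means were 2.42 ± 0.473 and 4.79 ± 0.935 CPM (SD, n = 3). The log2 fold change was 0.98 (SE 0.294), and edgeR's adjusted p over all tested genes was 0.459 (0.00769 unadjusted). Over 13 alternatives its log2 fold change ran from 0.859 to 1.15 and its adjusted p-value from 0.0419, in DESeq2 on the same genes, to 1.

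*Ly6a* (ENSMUSG00000075602, chromosome 15, 74863840 to 74869880) encodes Sca-1, a marker of blood stem cells that is also found on some keratinocytes and endothelial cells. Its CPM values were 0.464, 1.223 and 1.355 in Ctrl 1, 2 and 3 and 1.249, 6.828 and 2.565 in TKO 1, 2 and 3. TKO 2 stood far above the rest, and TKO 1 lay between Ctrl 2 and Ctrl 3, so the groups overlapped. The log2 fold change was 1.80 (SE 0.627), and edgeR's adjusted p was 0.658 (0.0169 unadjusted). Within each same-numbered pair of libraries the TKO value was the higher one. Without TKO 2 the log2 fold change was 0.907. With no filter on low counts *Ly6a* was called, at an adjusted p-value of 0.00389. *Ly6c1* (ENSMUSG00000079018, chromosome 15, 74915847 to 74920686), a neighbour of *Ly6a* known from monocytes and endothelial cells, had overlapping groups. It measured 0.767, 0.464 and 0.881 CPM in Ctrl 1, 2 and 3 and 0.408, 1.132 and 0.608 CPM in TKO 1, 2 and 3, with both the lowest and the highest value in TKO. Its log2 fold change was 0.02 (SE 0.508). *Ly6a*, *Ly6c1* and nearby *Ly6c2* and *Ly6i* are close copies of each other, and how reads that fit several copies were assigned is not given in the sources used here.

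The keratinocyte members were abundant and had overlapping groups. *Ly6d* (ENSMUSG00000034634, chromosome 15, 74633902 to 74635597), a surface marker of keratinocytes and of early B cells, measured 434.2, 420.1 and 485.7 CPM in Ctrl 1, 2 and 3. In TKO 1, 2 and 3 it measured 315.3, 320.3 and 616.1 CPM, so 2 TKO libraries lay below every Ctrl library and the third above them all. Its log2 fold change was -0.10 (SE 0.248). *Lypd3* (ENSMUSG00000057454, chromosome 7, 24335970 to 24340543), the surface protein C4.4A of suprabasal keratinocytes, had CPM values of 136.9, 110.6 and 139.0 in Ctrl 1, 2 and 3 and 106.0, 115.6 and 149.4 in TKO 1, 2 and 3. The spread within each group exceeded the difference between them, with a log2 fold change of -0.06 (SE 0.163), the smallest standard error among the members. *Ly6g6c* (ENSMUSG00000092586, chromosome 17, 35284316 to 35289026), from the cluster in the major histocompatibility complex, had CPM values of 23.43, 35.72 and 54.53 in Ctrl 1, 2 and 3 and 32.68, 48.76 and 46.11 in TKO 1, 2 and 3. All 3 TKO values fell inside the Ctrl range, and the log2 fold change was 0.17 (SE 0.279).

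The remaining members were near the detection limit or low. *Lypd1* (ENSMUSG00000026344, chromosome 1, 125795357 to 125841150), a relative of *Lynx1* that also binds nicotinic receptors, measured 0.666, 1.579 and 1.995 CPM in Ctrl 1, 2 and 3 and 0.569, 1.358 and 0.913 CPM in TKO 1, 2 and 3. The groups overlapped, and its log2 fold change of -0.58 (SE 0.504) was the lowest of the tested members. It was -0.251 without Ctrl 3 and -0.933 without TKO 2. Within each same-numbered pair the TKO value was the lower one. *Ly6k* (ENSMUSG00000044678, chromosome 15, 74668723 to 74672029), a testis protein needed for sperm function, had 3, 9 and 30 counts in Ctrl 1, 2 and 3 and 30, 24 and 52 counts in TKO 1, 2 and 3. Ctrl 3 reached the TKO level, so the groups overlapped, although the TKO CPM was the higher one in each same-numbered pair. Its log2 fold change was 1.24 (SE 0.894), 2.54 without Ctrl 3 and 0.788 without Ctrl 1. *Slurp1* (ENSMUSG00000022596, chromosome 15, 74596167 to 74599892) had 3, 0 and 0 counts in Ctrl 1, 2 and 3 and 0, 7 and 2 in TKO 1, 2 and 3. A count of 0 allows up to 3 counts, or 0.0232 to 0.0303 CPM at these depths, which covers counting error only, and no fold was computed for *Slurp1*. Of the 10 members, 7 overlap an annotated gene on the other strand (*Ly6e*, *Ly6a*, *Ly6k*, *Slurp1*, *Lypd1*, *Lypd3* and *Ly6g6c*), and whether counting used the strand is not given in the sources used here.

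**Figure D2:**
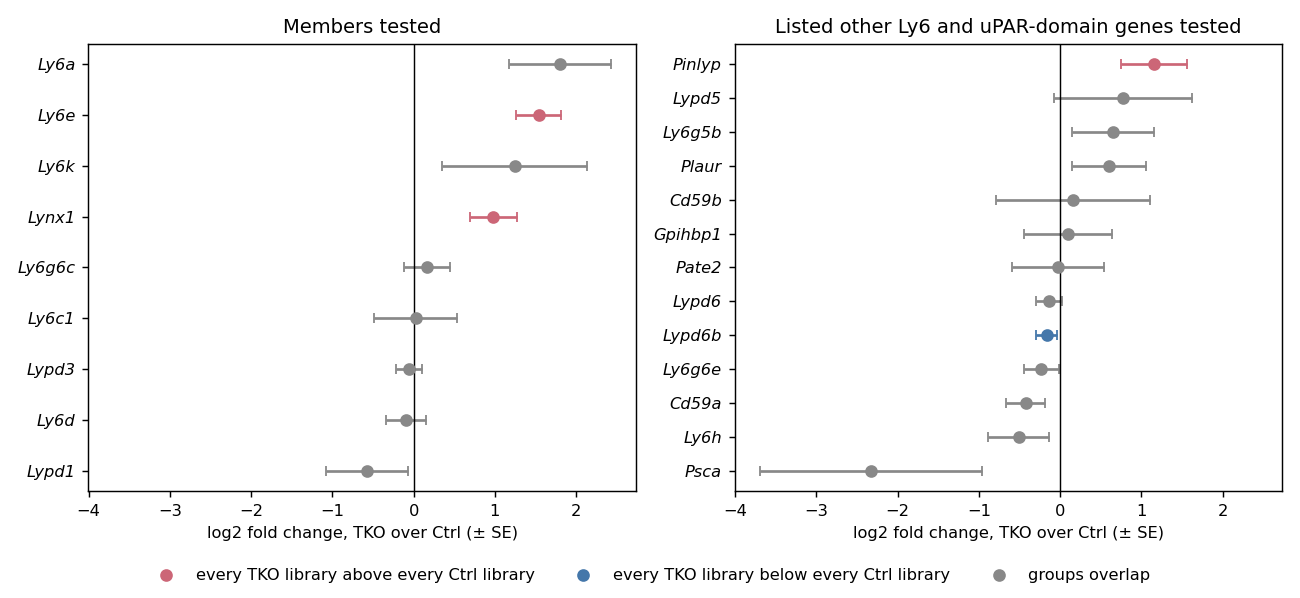
Log2 fold change, TKO over Ctrl, with its standard error, for the 9 tested members (left) and the 13 tested genes of the list of other family genes, which lacks *Ly6g6g* (right); red marks genes whose 3 TKO libraries all exceed the 3 Ctrl libraries, blue the reverse, and grey an overlap. *Ly6e*, *Lynx1* and *Pinlyp* are red and *Lypd6b* is blue.

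A hand-written list of other Ly6 and uPAR-domain genes, which may not be complete, gave a wider view of the family. Of 49 genes listed, 42 had at least 1 count, 13 could be tested and edgeR called 0, as did DESeq2 on the same genes. Their median log2 fold change was -0.0278, with 6 positive and 7 negative values, and with 1 library left out it ran from -0.135 (TKO 3) to 0.147 (TKO 1). It was -0.229 over 42 genes with no low-count filter. *Ly6g6g*, a gene of the chromosome 15 cluster described with the genes around *Ly6e*, had been left off the list. With it added after the data were seen, 14 were tested, 7 were positive and 7 negative, the median was 0.0345 and edgeR again called 0. The 4 most abundant were *Lypd6b*, *Lypd6*, *Ly6g6e* and *Cd59a*. *Lypd6b*, a relative of the Wnt co-receptor regulator *Lypd6*, measured 44.54, 49.12 and 47.86 CPM in Ctrl 1, 2 and 3 and 40.63, 42.22 and 43.49 CPM in TKO 1, 2 and 3. Its groups did not overlap, but the difference was small, with a log2 fold change of -0.16 (SE 0.127). *Lypd6* (log2 fold change -0.13) and *Ly6g6e* (-0.23) had overlapping groups. So did *Cd59a*, which shields cells from complement, at -0.42 (SE 0.241). *Ly6g6e* and *Cd59a*, unlike *Lypd6*, were lower in TKO within each same-numbered pair. With the replicate number as a block edgeR still called 0 of this list. *Pinlyp*, a phospholipase A2 inhibitor, measured 0.495, 0.580 and 0.733 CPM in Ctrl 1, 2 and 3 and 1.360, 1.693 and 0.970 CPM in TKO 1, 2 and 3. Its groups did not overlap, and its log2 fold change of 1.15 (SE 0.408) had adjusted p = 0.659 in edgeR.

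Genes around *Ly6e* were then examined by position. The annotation holds 75 other genes that start within 500 kb of the start of *Ly6e*, of which 49 had a row in the table, 39 had at least 1 count and 12 could be tested. edgeR called 0 of the 12, and the smallest adjusted p-value was 0.459. Of the 12, 8 had positive and 4 negative log2 fold changes, with a median of 0.295 beside 0.0128 over all tested genes. At an unadjusted p-value under 0.05, 3 were higher (*Lynx1*, *Ly6a* and *Ly6g6g*) and 0 lower. Groups did not overlap in 2, *Lynx1* and *Ly6g6g*. *Ly6g6g*, named after its values were seen, measured 2.070, 1.780 and 1.893 CPM in Ctrl 1, 2 and 3 and 3.306, 4.283 and 2.163 CPM in TKO 1, 2 and 3. Its log2 fold change was 0.76 (SE 0.336; edgeR adjusted p = 0.810). *Ly6d* lies between *Lynx1* and *Ly6g6g*, and its groups overlapped. *Jrk* (0.08), a DNA-binding protein gene, and *Arc* (-0.59), a synaptic immediate early gene, lay beyond the cluster and had overlapping groups. The lowest value, -2.33 (SE 1.37) in *Psca*, rested on 0 to 115 counts per library, and was also singled out after its value was seen.

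**Figure D3:**
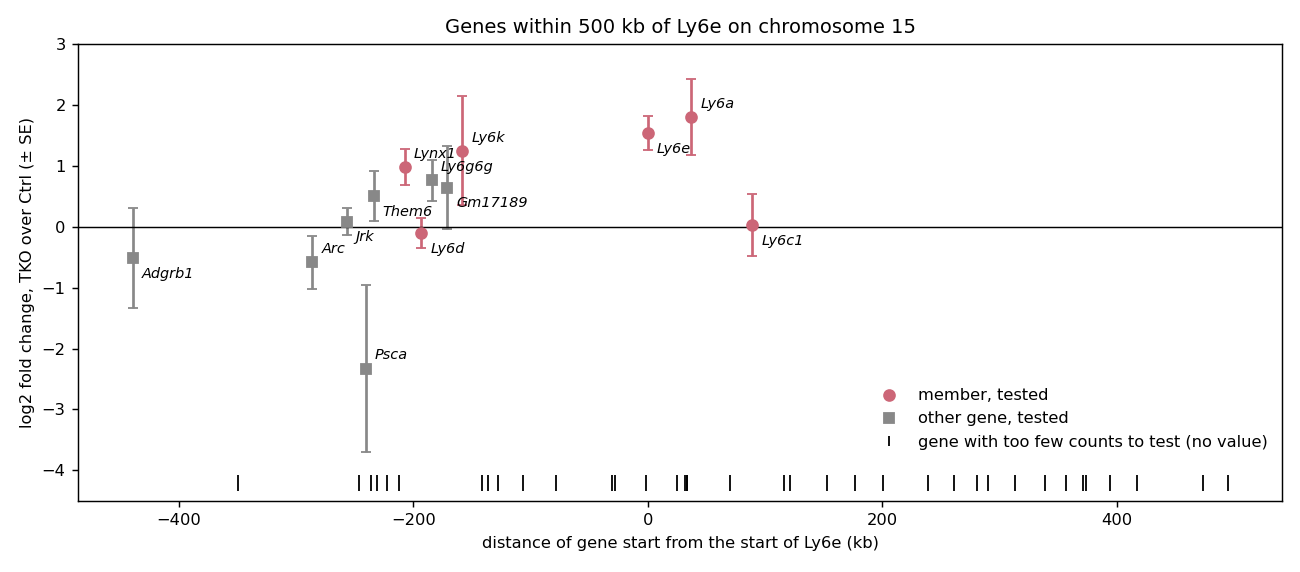
Log2 fold change, TKO over Ctrl, with its standard error, against the distance of a gene's start from the start of *Ly6e* in kb; red circles are members, grey squares other tested genes, and ticks at the bottom genes with too few counts. *Ly6e* and *Ly6a* stand at 1.54 and 1.80 while *Ly6c1* beyond them stands at 0.02, and the genes drawn to the right of *Ly6c1* had too few counts.

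Pathways that the members belong to were described by counts. Interferon-stimulated genes lay on both sides of 0. Of 46 listed, 43 were tested, edgeR called 0, 21 were positive and 22 negative, and the median log2 fold change was -0.0212. The median changed sign to 0.295 without Ctrl 2 and to 0.26 without TKO 3, and was -0.204 without TKO 2 and -0.198 without Ctrl 3. Over the 30 genes with at least 10 counts in every library it was 0.101. At an unadjusted p-value under 0.05, 1 was higher and 2 were lower, and DESeq2 on the same genes called 0. Their summed level was 149, 158 and 140 CPM in Ctrl 1, 2 and 3 and 158, 180 and 135 CPM in TKO 1, 2 and 3. *Ifi27*, an interferon-induced mitochondrial protein gene, was at -1.10 (SE 0.363) and *Ifi35* at -0.50 (SE 0.192), both with every TKO library below every Ctrl library and edgeR adjusted p = 0.587 and 0.729. Groups did not overlap in the other direction in 1 gene, *Rigi*, a sensor of viral RNA named after its values were seen, at 0.25. *Trim25*, the most abundant of the list and a ubiquitin ligase of viral RNA sensing, was at 0.48 with overlapping groups. *Tap1* (0.39), *Stat2* (-0.12) and *Eif2ak2* (-0.02) also overlapped. Within same-numbered pairs *Stat2* was always lower in TKO, while *Trim25*, *Tap1* and *Eif2ak2* went both ways. The replicate block gave 0 calls among the interferon-stimulated genes.

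The enzymes that build and attach GPI anchors, on which most members depend for their place on the membrane, differed little. Of 29 listed, 27 were tested and 0 called by edgeR or by DESeq2 on the same genes, with log2 fold changes from -0.341 (*Pgap3*) to 0.355 (*Dpm1*). None had an unadjusted p-value under 0.05. The median was -0.0236 (-0.0816 to 0.0675 with 1 library left out), and the most abundant, *Pigt*, a subunit of the transamidase that attaches the anchor, was at 0.08 (SE 0.181).

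Nicotinic acetylcholine receptor subunits, the targets of *Lynx1*, *Slurp1* and *Lypd1*, were low. Of 16 listed, 8 were tested and edgeR called 0, with a median log2 fold change of 0.56. Without TKO 2 the median was -0.0352, over 12 tested, and without TKO 3 it was 0.294, over 10. It was -0.553 over all 16 with no low-count filter and -0.449 over 15 in the default workflow of DESeq2. *Chrna7*, the α7 subunit that Slurp1 is known to act on, measured 0.636, 0.255 and 0.983 CPM in Ctrl 1, 2 and 3 and 4.121, 5.370 and 1.899 CPM in TKO 1, 2 and 3. All its TKO libraries lay above all Ctrl libraries. Its log2 fold change was 2.60 (SE 0.557; edgeR adjusted p = 0.185), while DESeq2 on the same genes called 1 gene of this list. *Chrnb2* (-0.45), *Chrna5* (-0.66) and *Chrnb1* (0.94) had overlapping groups. Within same-numbered pairs *Chrnb2* was always lower in TKO, while *Chrna5* and *Chrnb1* went both ways. The replicate block gave 0 calls in this list.

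The urokinase system, which acts through the founding uPAR-domain receptor *Plaur*, had 7 of 8 listed genes tested and 0 called by edgeR or by DESeq2 on the same genes. The median log2 fold change was 0.602, and 0.0292 without TKO 2. *Plaur* itself measured 1.313, 0.929 and 0.993 CPM in Ctrl 1, 2 and 3 and 1.368, 2.671 and 0.872 CPM in TKO 1, 2 and 3, with TKO 2 high and TKO 3 below every Ctrl library. *Serpine2*, a protease inhibitor that blocks urokinase, measured 13.99, 16.75 and 15.74 CPM in Ctrl 1, 2 and 3 and 30.85, 80.08 and 20.75 CPM in TKO 1, 2 and 3. Its groups did not overlap, and TKO 2 stood far above the rest. Its log2 fold change was 1.5 (SE 0.424), and edgeR gave adjusted p = 0.417. *Plau*, urokinase itself and the most abundant of the list, was at -0.11.

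**Figure D4:**
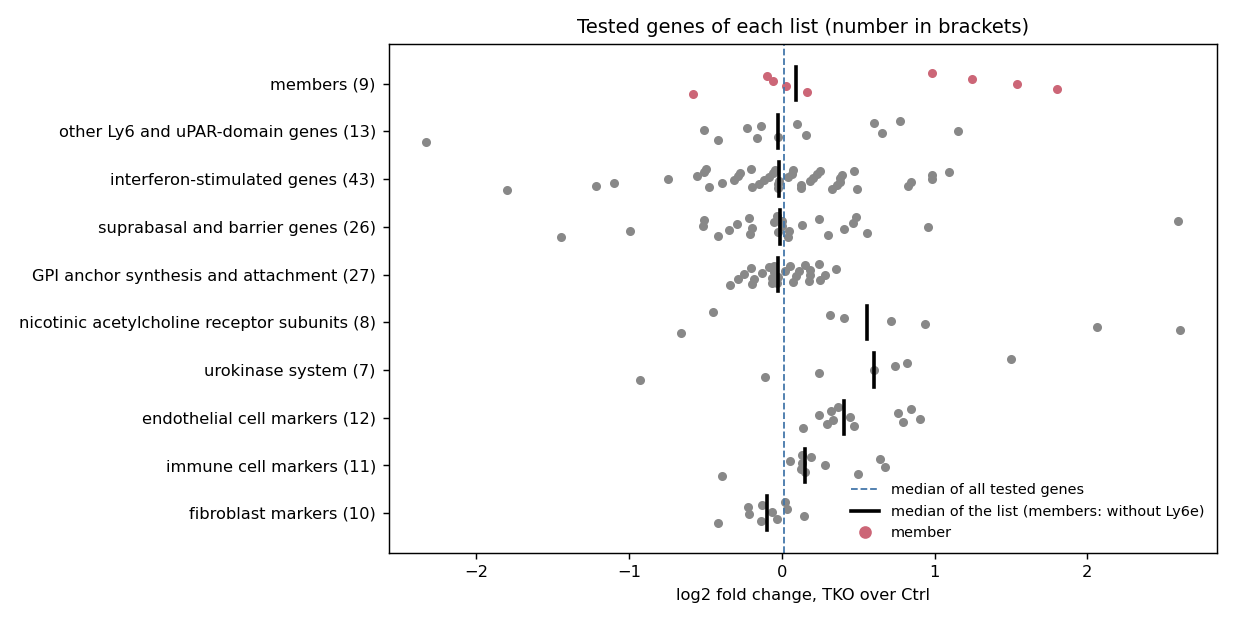
Log2 fold change, TKO over Ctrl, of each tested gene by list, with the number tested in brackets; black bars are list medians (without *Ly6e* for the members) and the dashed line is the median of all tested genes, 0.0128. The members run from -0.58 to 1.80 and the interferon-stimulated genes from -1.80 to 1.10, and the medians of both lie near 0, at 0.0952 and -0.0212.

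Keratinocyte differentiation genes likewise lay on both sides of 0. Of 30 suprabasal and barrier genes listed, 26 were tested and edgeR called 0, with a median log2 fold change of -0.0116 (-0.122 without Ctrl 1 and 0.00214 without TKO 3), 1 gene higher and 3 lower in groups that did not overlap. *Krt1* and *Krt10*, the most abundant of the list, were at -0.51 (SE 0.178) and -0.42 (SE 0.170), each with all TKO libraries below all Ctrl libraries. The summed level of the list was 20540, 20390 and 22340 CPM in Ctrl 1, 2 and 3. In TKO 1, 2 and 3 that sum was 18470, 14230 and 15060 CPM, below every Ctrl library. *Sprr1b*, a cornified envelope protein gene, was at 2.59 (SE 0.584), with adjusted p = 0.214 in edgeR. *Dmkn* (0.00) and *Dsg1a* (-0.35) had overlapping groups. DESeq2 on the same genes called 1 gene of the list higher. Of 14 basal keratinocyte markers edgeR called 0, with a median of 0.0492 (-0.024 without Ctrl 1, -0.0123 without TKO 3 and 0.116 without Ctrl 2), and *Krt15* was at -1.18 (SE 0.256), with adjusted p = 0.185 in edgeR. DESeq2 on the same genes called 1 basal marker lower, as did edgeR without TKO 3. *Lypd3*, *Ly6d* and *Ly6g6c*, the members abundant in keratinocytes, had no group of libraries apart from the other.

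Markers of other cell types that the sort could hold were read beside *Ly6e*, *Lynx1* and *Ly6a*. All 12 endothelial markers were tested and had positive log2 fold changes, with a median of 0.409, 0 called by edgeR or by DESeq2 on the same genes, and 2 with an unadjusted p-value under 0.05. Their summed level was 42.3, 37.9 and 54.5 CPM in Ctrl 1, 2 and 3 and 38.5, 89.7 and 71.8 CPM in TKO 1, 2 and 3. *Cdh5*, a cadherin of endothelial junctions and the most abundant of the list, measured 8.562, 8.443 and 13.11 CPM in Ctrl 1, 2 and 3 and 8.226, 25.23 and 22.97 CPM in TKO 1, 2 and 3. No endothelial marker was at 0. The 2 TKO libraries with more *Ly6e* thus also held more endothelial marker RNA, and the median of the list was 0.204 without TKO 2 and 0.637 without TKO 1. In TKO 1 the endothelial sum lay within the Ctrl range, while *Ly6e* and *Lynx1* lay above every Ctrl library. The part of endothelial RNA in the levels of *Ly6e*, *Lynx1* and *Ly6a* was not tested.

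Of 16 immune markers 11 were tested and edgeR called 0, with a median log2 fold change of 0.148. The median was -0.598 without TKO 2, 0.58 without Ctrl 2 and 0.622 without TKO 1, and -0.0712 with the replicate block. Their sum was 32.5, 61.0 and 22.2 CPM in Ctrl 1, 2 and 3 and 14.1, 102 and 29.3 CPM in TKO 1, 2 and 3, highest in TKO 2, where *Ly6a* was also highest, and lowest in TKO 1. *Csf1r*, the macrophage growth factor receptor, was the most abundant. The T cell markers *Cd3d*, *Cd3e* and *Cd3g* and the Langerhans cell marker *Cd207* were at or near 0 in both groups. Each had 0 counts in Ctrl 2 and at most 16 in any library (*Cd3e* in Ctrl 3), and in TKO the counts were 0 apart from 8 of *Cd3e* in TKO 1. Of 10 fibroblast markers edgeR called 0, with a median of -0.0951, which was -0.428 without Ctrl 1, 0.195 without Ctrl 2, -0.231 without TKO 3 and 0.0318 with the replicate block. Their sum was 1310, 3640 and 3340 CPM in Ctrl and 2350, 2790 and 3080 CPM in TKO, lowest in Ctrl 1, and *Col1a1*, a collagen chain, was the most abundant. Skeletal muscle markers were all 12 tested and positive, with a median of 1.11, and *Myh3*, the embryonic myosin heavy chain, called (log2 fold change 2.61, edgeR adjusted p = 0.0211). DESeq2 on the same genes called 5 of the 12, while edgeR called 0 with the sex letter as a factor or without any 1 of Ctrl 1, Ctrl 2, Ctrl 3, TKO 1 and TKO 2. The median ran from 0.866 without TKO 2 to 1.59 without Ctrl 2. Their sum was 5.99, 13.7 and 9.60 CPM in Ctrl 1, 2 and 3 and 37.5, 40.2 and 41.2 CPM in TKO 1, 2 and 3, with the giant sarcomere protein gene *Ttn* the most abundant, and no muscle marker was at 0 in all libraries of a group. Among TKO libraries the muscle sum was near level while *Ly6e* differed between TKO 1 and the others. The part of immune, fibroblast and muscle RNA in the member levels was not tested. The study reads muscle genes among those upregulated in its bulk RNA-seq as de-repressed non-lineage genes. Whether the muscle marker RNA here came from keratinocytes or from muscle cells was not tested.

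**Figure D5:**
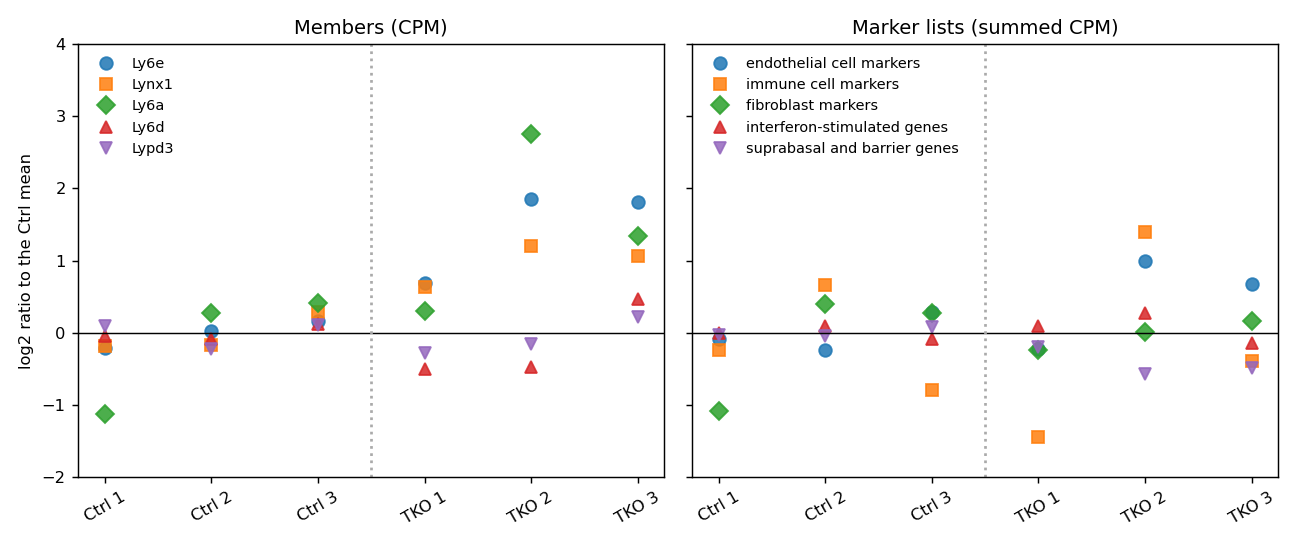
Log2 ratio of each library to the Ctrl mean, for the CPM of 5 members (left) and for the summed CPM of 5 marker lists (right); the dotted line divides Ctrl from TKO. *Ly6e* and *Lynx1* lie above 0.6 in all 3 TKO libraries, *Ly6a* reaches 2.75 in TKO 2, and the endothelial sum is at -0.22 in TKO 1 and at 0.998 and 0.68 in TKO 2 and TKO 3.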

How the data were processed

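Bulk RNA-seq counts of 3 Ctrl and 3 TKO libraries were re-analysed. Total RNA had been depleted of rRNA. The authors used fastp for trimming and STAR for alignment. The deposited values are raw counts of each Ensembl gene in each library, neither normalized nor pooled. The methods name GRCm39 and the submitters' processing notes GRCm38. The counting program, its annotation and its strand setting are not given in the sources used here. Of 55536 genes, 51477 matched GENCODE vM39 (GRCm39) by Ensembl ID, which gave symbols, positions and lengths.

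The counts were fitted with edgeR 4.0.16 (limma 3.58.1, R 4.3.3). filterByExpr (minimum count 10, minimum total 15) was followed by TMM scaling and by glmQLFit (robust) with glmQLFTest. All 20622 tested genes entered the Benjamini-Hochberg adjustment. A call needed adjusted p under 0.05 together with a log2 fold change beyond 1 in either direction. The biological coefficient of variation was 36.5%. DESeq2 1.42.0, the study's tool, was an alternative, with RLE size factors, other low-count filters, the replicate number as a block, the sex letter as a factor, each library left out and no fold threshold. On simulated counts of 19812 genes, edgeR called 20% of genes changed by a log2 fold change of 1, 70.8% of those changed by 2 and 85.7% of those changed by 3.

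The labels number replicates in both groups without saying that the numbers pair embryos or litters, or how many embryos a library came from, so p-values measure the spread between these libraries. Deviations from the group mean correlated by 0.187 to 0.272 within the 3 same-numbered pairs and by -0.243 to 0.0191 in the 6 other pairs, so the numbers were read as pairing the libraries, from the data alone. The main fit has no replicate block, as the study's methods name none, and the fit with the block was an alternative. The members, gene lists and tests were chosen with earlier results of these data known. Named genes are the members, the targeted genes and, of each list and of the 500 kb window, called genes, the 4 with the highest mean CPM and the 2 with the smallest p-values, except where said, and leaving out a gene that is not reported here. Lists were written by hand for interferon-stimulated, GPI anchor, nicotinic receptor and urokinase genes and for suprabasal, basal, endothelial, immune, fibroblast, muscle, melanocyte, Merkel and placode cells. Figures were drawn with matplotlib 3.10.9. Single-cell, CUT&RUN and PReCIS-seq data were not used here.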

Additional observations from a re-analysis of the deposited data

Results flagged for a closer look

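*Lypd1* was singled out because its difference ran in opposite directions in libraries lettered F and M. In the libraries lettered F, the ratio of TKO 2 to Ctrl 1 was 2.04. In those lettered M, the mean of TKO 1 and TKO 3 was 0.415 times that of Ctrl 2 and Ctrl 3, and both TKO libraries lay below both Ctrl libraries. The difference between the letters was not tested, since F has 1 library in each group. Ctrl 1 and TKO 2 do not share a replicate number, and by number *Lypd1* was lower in TKO in all 3 pairs, from 0.666 to 0.569, from 1.579 to 1.358 and from 1.995 to 0.913 CPM.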

How the results depend on the processing

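The direction of *Ly6e*, *Lynx1*, *Ly6a* and *Lypd1* held in all 13 alternatives, as did that of *Ly6k* in the 12 that tested it. The median of the tested members other than *Ly6e*, 0.0952, ran from -0.00938 to 0.369 over all 13. Each move was smaller than the SD between the TKO libraries, 0.409, a loose limit that also covers a change of sign. Genes called higher numbered 27, against 193 by DESeq2 on the same genes, 198 in its default workflow, 213 with no low-count filter, 9 with at least 10 counts in every library and 7 to 65 with 1 library left out (8, 7 and 8 without Ctrl 1, 2 and 3, and 15 and 65 without TKO 2 and TKO 3). Genes called lower numbered 0, against 21, 29 and 22 by the first 3 of these, and 0 to 16 with 1 library left out, the 16 without TKO 3. Members other than *Ly6e* called numbered 0, and 1 (*Ly6a*) with no low-count filter, which also moved the median of all tested genes to -0.11. *Ly6c1*, at 0.02, changed sign to -0.0117 with no filter, -0.0664 with the replicate block and -0.0803 with the sex letter. With 1 library left out *Ly6c1* ran from -0.47 to 0.296, *Ly6d* from -0.491 to 0.0646, *Ly6g6c* from -0.0873 to 0.521 and *Lypd3* from -0.218 to 0.0356. The cause of these moves was not tested.

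The replicate block gave 44 genes higher and 1 lower, a log2 fold change of 1.46 for *Ly6e*, and adjusted p-values of 0.345 for *Lynx1* and 0.221 for *Ly6a* from edgeR, and it changed no call of a member. By coding length *Ly6c1* and *Lypd1* exchanged the seventh and eighth places in Ctrl. Scaled by that length, the Ctrl ranges of *Lypd3* (102 to 128) and *Ly6g6c* (45.8 to 107) overlapped, unlike by exon length. On simulated counts differences near a log2 fold change of 1 were mostly missed, with 3 libraries a group and a call that needed more than 1. Members that were not called may thus still differ. Depth limits *Slurp1* and *Ly6k*.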

Other observations

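Other cell types of the embryonic epidermis were read in the same fit. Merkel cells, the touch receptor cells of the epidermis, had 6 of 7 markers tested, all 6 with negative log2 fold changes and a median of -1.69 (-2.57 without TKO 3, with all 7 tested). All TKO libraries lay below all Ctrl libraries in 5 of them, where 5.11% of all tested genes did. edgeR called 0, with 5 at an unadjusted p-value under 0.05, and DESeq2 on the same genes called 2. *Krt8*, a keratin of Merkel cells, measured 3.615, 4.009 and 3.071 CPM in Ctrl 1, 2 and 3 and 1.105, 0.625 and 1.085 CPM in TKO 1, 2 and 3. *Atoh1*, the transcription factor that specifies Merkel cells, was at -2.46 (SE 0.737). Hair follicle placode markers had all 9 tested and 0 called by edgeR or by DESeq2 on the same genes, with a median of 0.0997 (-0.101 without TKO 3 and 0.241 without TKO 1), and *Shh*, a placode signal, was at 0.44 (SE 0.306). Of 7 melanocyte markers edgeR called 0 and DESeq2 on the same genes 1, with a median of 0.434 (0.117 without Ctrl 1 and 0.763 without Ctrl 3). *Mlana*, a melanosome protein gene, was at 3.13 (SE 0.856), with groups that did not overlap, while *Mitf*, the most abundant of the list, was at 0.13.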
